A study of Mus musculus with 4 samples.

Results

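The Schlafen genes are a small mouse gene family, and 7 of its genes (Slfn1, Slfn2, Slfn3, Slfn4, Slfn5, Slfn8 and Slfn9) are described here in double-positive thymocytes, T cell precursors with both CD4 and CD8 on their surface. Members were taken as every probe set whose single gene symbol in the array's annotation was one of these 7 names. This gave 9 probe sets, of 28898 with 1 gene name and 45037 in all. Slfn3 and Slfn5 each had 2 probe sets and the other genes 1 each. For a gene with 2, the probe set with the higher mean over all arrays stood for the gene, as for all 17097 named genes.

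The 4 arrays, 2 per label, held RNA of double-positive cells sorted by flow cytometry from C57BL/6 mice. The WT label names no transgene or floxed allele. The other label, hCD2-iCre x Gfi1fl/fl, combines an iCre recombinase under control elements of the human CD2 gene, which act in lymphoid cells, with both copies of Gfi1 floxed. Gfi1 encodes a repressor of transcription that binds DNA through zinc fingers. These are called the WT arrays and the iCre arrays below. Ages were not given, and the labels do not state whether replicates were separate animals, so the p-values cover the spread between these 4 samples, which may be technical. Because the WT mice are not described as carrying the recombinase, its effect and that of the floxed gene cannot be told apart.

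Schlafen proteins share an N-terminal core related to RNA-cleaving and AAA ATPase-like domains. Slfn1 and Slfn2 are short forms, Slfn3 and Slfn4 are intermediate, and Slfn5, Slfn8 and Slfn9 are long forms with an added helicase-like C-terminal part. The family was first described in thymocytes, where the short forms are known for growth restraint, and Slfn2 is known to be needed for quiescence of T cells. Several members are known to be induced by type I interferon.

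The genes lie together on mouse chromosome 11, in the order Slfn5, Slfn9, Slfn8, the related Slfn10-ps, Slfn2, Slfn1, Slfn4 and Slfn3 (RefSeq, GRCm38.p6). All 7 were matched by symbol in the RefSeq promoter table of that build, and the 250 bases before each start site were read, from the start farthest upstream of the 2 listed for Slfn8. The promoter of Slfn8 is printed whole because Slfn8 had the largest difference between labels, and that of Slfn2 because it is the short form with a bright probe set. Capitals mark the core of the interferon-stimulated response element in Slfn8, a pair of GAAA with any 2 bases between them, sought on both strands, and the letters ACTTCCTGG, which were chosen after the promoters were read, in Slfn2. Slfn8 lies on the minus strand at chr11:83020811-83021060 and Slfn2 on the plus strand at chr11:83064862-83065111.
Slfn8: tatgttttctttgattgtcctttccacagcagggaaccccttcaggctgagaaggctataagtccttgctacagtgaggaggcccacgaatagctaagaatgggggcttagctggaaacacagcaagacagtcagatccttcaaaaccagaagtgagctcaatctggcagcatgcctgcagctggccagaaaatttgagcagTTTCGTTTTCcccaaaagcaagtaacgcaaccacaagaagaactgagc
Slfn2: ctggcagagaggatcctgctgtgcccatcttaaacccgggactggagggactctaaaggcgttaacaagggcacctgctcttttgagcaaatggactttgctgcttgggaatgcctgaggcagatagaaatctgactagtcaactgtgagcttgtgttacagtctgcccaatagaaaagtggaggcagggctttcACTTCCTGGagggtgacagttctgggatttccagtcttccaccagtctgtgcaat

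The core of the response element was found in the promoters of 3 of the 7 genes, which were the long forms Slfn5, Slfn8 and Slfn9. It was found in 2.98% of all 32851 promoters of the same length. In Slfn8 it covers bases 48 to 39 before the start and in Slfn9 bases 45 to 36, with the same letters. In Slfn5 it covers bases 155 to 146, inside a run rich in A. The promoters of Slfn8 and Slfn9 were 80.2% identical over their alignment, while the other 20 pairs of members lay between 45.5% and 53.4%, a level that gapped alignment can also give to unrelated sequence. The 3 stretches are shown so that the element can be compared, with the core in capitals (Slfn8 chr11:83020834-83020873, minus strand; Slfn9 chr11:82991851-82991890, minus strand; Slfn5 chr11:82951932-82951971, plus strand).
Slfn8: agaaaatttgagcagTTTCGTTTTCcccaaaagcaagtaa
Slfn9: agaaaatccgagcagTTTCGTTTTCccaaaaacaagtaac
Slfn5: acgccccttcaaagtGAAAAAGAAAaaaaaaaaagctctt

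The short and intermediate forms shared another stretch. ACTTCCTGG was the longest run of letters that the promoters of Slfn1, Slfn2, Slfn3 and Slfn4 had in common, and it was found on either strand in 0.7% of all promoters. It contains GGAA on the opposite strand, the core read by ETS family factors. It lay 74 to 66 bases before the start in Slfn1, 55 to 47 in Slfn2, 42 to 34 in Slfn3 and 73 to 65 in Slfn4. The 4 stretches follow with the run in capitals, all on the plus strand (Slfn1 chr11:83116731-83116769; Slfn2 chr11:83065042-83065080; Slfn3 chr11:83191273-83191311; Slfn4 chr11:83175098-83175136).
Slfn1: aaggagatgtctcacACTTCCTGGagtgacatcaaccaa
Slfn2: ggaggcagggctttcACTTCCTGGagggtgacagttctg
Slfn3: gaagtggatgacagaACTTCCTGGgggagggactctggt
Slfn4: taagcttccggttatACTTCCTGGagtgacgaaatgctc

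TTC and GAA with any 3 bases between them, the core of the STAT-binding GAS element, was in none of the 7 promoters and in 7.02% of all. The letters AAATCA, which hold the AATC core of GFI1 binding, were found on either strand in Slfn3, Slfn4 and Slfn5 and in 12.4% of all promoters. The longer AAATCA was not among the 250 bases of Slfn8, Slfn1, Slfn2 or Slfn9. The shorter AATC does occur in each of these windows, and its share over all promoters was not counted. Such matches describe letters in these windows only.

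Each array's values were log2 RMA signals, with medians of 3.53 to 3.55 and lower quartiles of 2.97 to 3.02. The probe set of Gfi1 itself was brighter on the iCre arrays, at 11.39 ± 0.11 against 10.13 ± 0.06 on the WT arrays (SD, n = 2 each). The adjusted p was 0.00781 by limma and 0.532 by an ordinary t statistic. The difference was 1.27, and 1.22 without WT replicate 2. The sources used here do not say whether this probe set lies in the floxed part, and if it lies outside, it checks nothing. Directions below are therefore between arrays labelled iCre and arrays labelled WT. Genes of double-positive thymocytes were bright under both labels. The mean of 12 measured ones, among them Cd4, Cd8a and Rag1, lay between 11.27 and 11.55 on the 4 arrays. Because the list also holds general T cell genes such as Cd3e, this mean cannot show how pure the sort was.

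No Schlafen gene passed the test between the labels. Slfn8, a long form, had the largest difference and was about 2-fold brighter on the iCre arrays, and Slfn1, a short form, was slightly brighter there at a signal near the array medians. Slfn2 was bright on every array and its labels overlapped. Slfn3, Slfn4, Slfn5 and Slfn9 read between 2.81 and 3.85 on all arrays, around the array medians. Of the 7 genes, 0 were called at an adjusted p of 0.05 over all genes, against 1.11% of all 17097 genes (limma with Benjamini-Hochberg adjustment; 0.942% higher and 0.17% lower on the iCre arrays). At an unadjusted p of 0.05 the count was 2 (Slfn8 and Slfn1), against 8.29% of all genes, and by an ordinary t statistic 0 members were called after adjustment and 2 before it. With 1 iCre array left out, 1 member was called in each case: Slfn8 without iCre replicate 1 and Slfn3 without iCre replicate 2. The count at an unadjusted p of 0.05 was 4 without iCre replicate 2 (Slfn2 and Slfn3 besides Slfn8 and Slfn1), and 1 without the dimmest 50% of probe sets, a filter that removes Slfn1.

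Slfn8 read 7.44 and 7.55 on WT replicates 1 and 2, and 8.46 and 8.73 on iCre replicates 1 and 2. Probe sequences were not used here, so how far this probe set also reads the related Slfn9 or Slfn10-ps, or those of Slfn3 and Slfn4 each other, was not tested. Both iCre arrays lay above both WT arrays, with 0.91 log2 units between the nearest arrays. The means were 7.49 ± 0.08 and 8.60 ± 0.19 (SD, n = 2 each), a difference of 1.10 ± 0.21 (SE) or 2.15-fold, with a 95% confidence interval of 1.52-fold to 3.05-fold. The adjusted p was 0.0828 (limma; unadjusted 0.0013, rank 266 of the 17097 genes), so the difference exceeded the spread of the arrays within a label but did not pass the threshold over all genes. Over the 14 alternative settings the difference lay between 0.97 and 1.24, and the adjusted p between 0.0166 without iCre replicate 1 and 0.594 by the ordinary t statistic. An exact permutation test of 2 arrays against 2 cannot go below a two-sided p of 0.333, which is the value it gave for Slfn8. A difference of at least 2-fold with labels that do not overlap, as in Slfn8, was found for 2.41% of all genes.

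**Figure D1:**
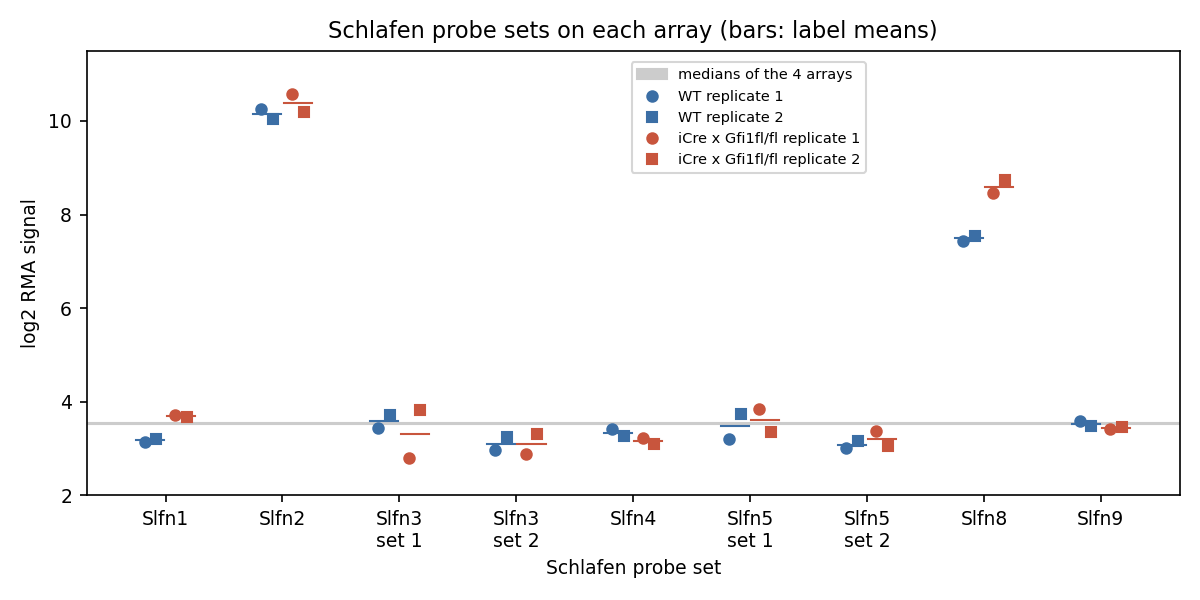
Log2 RMA signal of the 9 Schlafen probe sets (x axis) on each of the 4 arrays (points; circles are replicate 1 and squares replicate 2), with bars at the label means and a grey band at the array medians. Slfn2 lies above 10 on all arrays, Slfn8 separates by label, and the other probe sets lie near the band.

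The short forms differed from each other in signal. Slfn1 read 3.15 and 3.20 on WT replicates 1 and 2, and 3.73 and 3.66 on iCre replicates 1 and 2. The labels did not overlap, with a gap of 0.47 between the nearest arrays. The difference was 0.52 ± 0.12 (SE), 1.44-fold with an interval of 1.17-fold to 1.75-fold (limma, adjusted p = 0.159). All 4 values lay close to the medians of the arrays (33.5% to 53.5% of probe sets at or below them), a range in which RMA compresses differences and in which a signal may be background.

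Slfn2 read 10.25 and 10.05 on WT replicates 1 and 2, and 10.58 and 10.20 on iCre replicates 1 and 2. The lower iCre array lay below the higher WT array, so the labels overlapped. The difference was 0.24 ± 0.18 (SE; limma, adjusted p = 0.899), with an interval from 0.879-fold to 1.59-fold. This bounds a change of Slfn2 signal without showing that there was none. Its probe set was among the brighter ones, with at least 95.9% of all probe sets at or below it on each array. Within each label the array with the higher Slfn2 signal had the lower mean of 28 measured cell cycle genes. That mean was 8.02 and 9.69 on iCre replicates 1 and 2 and 8.69 and 9.12 on WT replicates 1 and 2. Slfn4 had the same order within each label, Slfn8 and Slfn3 the opposite order, and Slfn1, Slfn5 and Slfn9 neither. Any part of the cell cycle mean in the values of these genes was not tested.

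The intermediate forms, Slfn3 and Slfn4, are known from myeloid and gut studies as well as T cells. Slfn4 read 3.41 and 3.26 on WT replicates 1 and 2, and 3.22 and 3.10 on iCre replicates 1 and 2. The iCre arrays were lower by a gap of only 0.04, and the difference of -0.18 ± 0.12 (SE) did not pass (limma, adjusted p = 0.863). Slfn4 lay below the median of every array, as did 8 of 14 measured myeloid and dendritic markers, of which 0 were called (limma; 1 at an unadjusted p of 0.05). The means of those 14 markers lay between 3.25 and 3.46 on the WT arrays and between 3.42 and 3.44 on the iCre arrays.

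Slfn3 read 3.44 and 3.72 on WT replicates 1 and 2, and 2.81 and 3.82 on iCre replicates 1 and 2. The iCre arrays were thus the lowest and the highest of the 4, and the difference was -0.27 ± 0.31 (SE; limma, adjusted p = 0.973). It was 0.24 without iCre replicate 1 and -0.77 without iCre replicate 2, the latter called with an adjusted p of 0.0215 (range 0.0215 to 1 over the alternatives). The other Slfn3 probe set, whose name carries the suffix that the array's maker uses for probes matching more than 1 transcript, read 2.97 and 3.24 on the WT arrays and 2.88 and 3.32 on the iCre arrays. Its difference was -0.01 (limma over all named probe sets, adjusted p = 1). In both Slfn3 probe sets iCre replicate 1 was the lowest array and iCre replicate 2 the highest. In both, the 4 arrays came in the same order as by the mean of the cell cycle genes, and any link was not tested.

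Of the long forms besides Slfn8, Slfn5 read 3.21 and 3.75 on WT replicates 1 and 2, and 3.85 and 3.36 on iCre replicates 1 and 2. The labels overlapped and the difference was 0.13 ± 0.23 (SE; limma, adjusted p = 1). The other Slfn5 probe set read 3.01 and 3.16 on the WT arrays and 3.37 and 3.05 on the iCre arrays, which differed by 0.12 between labels (limma, adjusted p = 0.962 over all named probe sets). In both Slfn5 probe sets iCre replicate 1 was the highest array and WT replicate 1 the lowest, and the 4 arrays came in the same order.

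Slfn9 read 3.58 and 3.48 on WT replicates 1 and 2, and 3.41 and 3.45 on iCre replicates 1 and 2. The labels did not overlap, by 0.03, and the difference was -0.10 ± 0.13 (SE; limma, adjusted p = 0.984). Slfn9 carries the same response element letters as Slfn8 in its promoter, but its probe set stayed at the array medians, where a difference may not be detectable. Labels that did not overlap were found in 4 of the 7 genes (Slfn8 and Slfn1 higher, Slfn4 and Slfn9 lower on the iCre arrays), against 34.5% of all genes (16% higher and 18.5% lower).

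**Figure D2:**
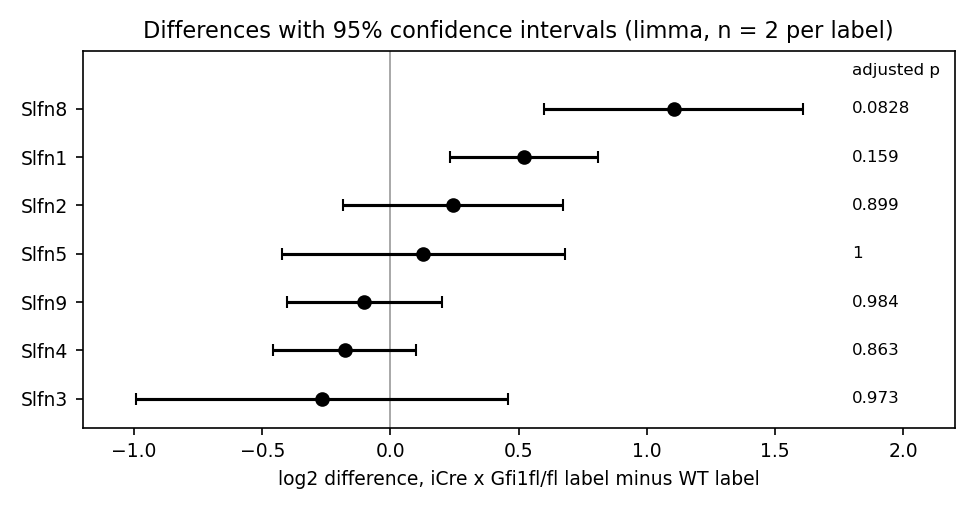
Log2 difference (x axis, iCre label minus WT label) of the 7 Schlafen genes with 95% confidence intervals from limma, n = 2 arrays per label, and the adjusted p over all genes at the right. The intervals of Slfn8 and Slfn1 exclude 0 before adjustment, and no adjusted p is under 0.05.

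The Schlafen genes' surroundings on chromosome 11 showed no difference that passed the test. Slfn10-ps, the Schlafen pseudogene between Slfn8 and Slfn2, read 5.52 and 6.27 on WT replicates 1 and 2, and 5.17 and 5.89 on iCre replicates 1 and 2. The labels overlapped, with a difference of -0.36 ± 0.36 (SE; limma, adjusted p = 0.96). The 5 nearest genes with a probe set of their own before the cluster were Rffl, Rad51d, Fndc8, Nle1 and Unc45bos, and the 5 after it AI662270, Ap2b1, Rasl10b, Gas2l2 and 1700020L24Rik. Of these 10 genes and Slfn10-ps, 0 were called and 0 had an unadjusted p under 0.05 (limma), with differences from -0.36 to 0.24 and a median of 0.03. The largest among the 10 flanking genes was that of Rad51d, a homologous recombination gene, at 0.24. AI662270, a non-coding gene next to Slfn3, was bright under both labels at 10.07 and 10.22. Slfnl1, a Schlafen-like gene on another chromosome, differed by 0.21 (adjusted p = 0.867).

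**Figure D3:**
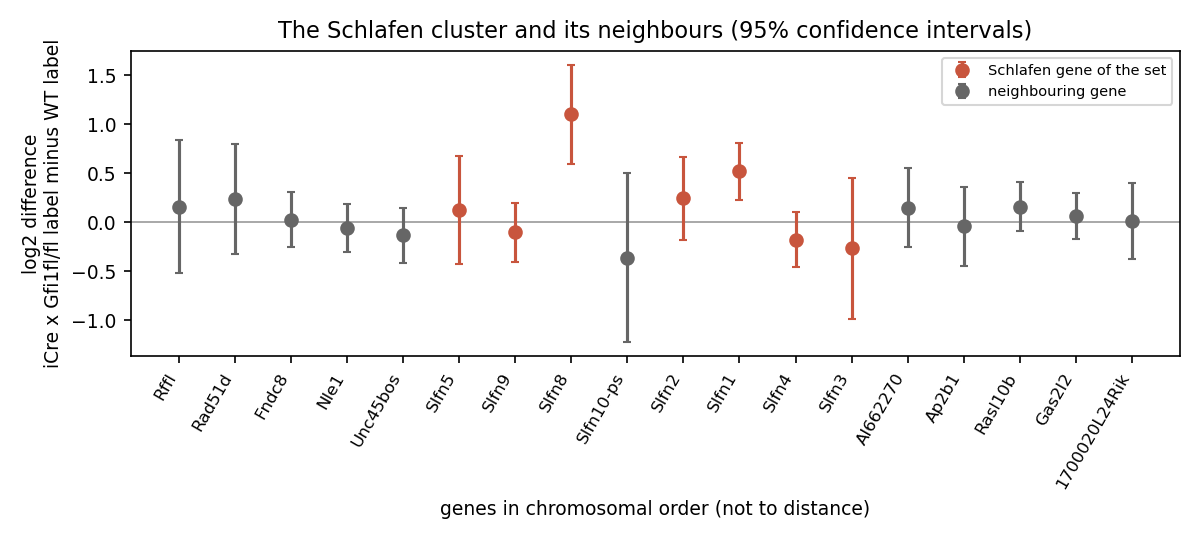
Log2 difference (y axis, iCre label minus WT label, bars are 95% confidence intervals, n = 2 arrays per label) of the 7 Schlafen genes and 11 neighbouring genes in chromosomal order (x axis, not to distance). Slfn8 lies at 1.10 while its measured neighbours Slfn9 and Slfn10-ps lie at -0.10 and -0.36.

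Interferon-stimulated genes, the programme to which several Schlafen genes are known to belong, were examined beside them. This list was chosen with earlier results of these data known, so its counts only describe it. Of 26 measured genes of the list, which holds no Schlafen gene, 5 rose, 0 fell and 21 did not pass the test (limma). Over all genes, 1.11% were called and 0.942% were called higher on the iCre arrays. An unadjusted p under 0.05 was found for 19 of the 26 (limma), against 8.29% of all genes. Differences lay above 0 in 25 of 26, against 7618 of all 17097 genes. The median difference was 0.89, against 0.13 over the 7 Schlafen genes and -0.02 over all genes. Ifi27l2a rose 13.3-fold, Rsad2, which encodes the antiviral enzyme viperin, 7.51-fold, Ifit1, an RNA-binding antiviral gene, 6.94-fold, and Usp18, a brake on interferon receptor signalling, 6.59-fold. Usp18 had the highest adjusted p of the 5, at 0.0116. The count was 8 with a robust prior or without the dimmest 30% of probe sets, 11 and 10 without iCre replicate 1 and 2, and 0 by the ordinary t statistic. The difference of Slfn8 thus lay above the median of this list and below all 5 of its called genes. The core of the response element was in the promoters of 8 of the 21 list genes in the promoter table (38.1%). Counted likewise, by any promoter of a gene, it was in 3.46% of all 27025 genes there. The Schlafen genes were counted by 1 promoter each.

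The ligands, receptors and signalling genes of the interferon pathway gave 0 calls among 22 measured (limma; 5 at an unadjusted p of 0.05), with a median of 0.03. The largest differences were those of Irf9, the DNA-binding part of the interferon-stimulated factor ISGF3, at 1.29, and Irf1, an interferon-induced transcription factor, at 1.12 (adjusted p = 0.0701 and 0.0794). Without iCre replicate 1, 2 genes of this list were called, and without iCre replicate 2, 1. The measured ligand genes Ifnb1, Ifna1, Ifna2, Ifna4 and Ifng differed by -0.02, -0.11, -0.15, 0.05 and -0.14. All had label means below the array medians.

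Because Slfn2 is known for T cell quiescence, other regulators of that state were also taken. Of 20 measured, 1 rose, 0 fell and 19 did not pass (limma). The share called over all genes was 1.11%, with 0.942% higher and 0.17% lower on the iCre arrays. The one that rose was Klf2, a transcription factor of quiescent and migrating T cells, with a difference of 5.20 (adjusted p = 0.000301). The list's median was 0.02, against -0.02 over all genes. Differences lay above 0 in 11 of the 20, against 7618 of all 17097 genes. The lowest differences of the 20 were those of Vsir and Cdkn2d, at -1.19 and -0.51, with labels that did not overlap. Neither gene was called (limma, adjusted p = 0.0746 and 0.242). Without iCre replicate 1 the list had 2 called genes. Of 17 measured genes of single-positive maturation, a list that also holds Klf2, 8 rose and 0 fell, with a median of 0.20. That list was chosen with earlier results of these data known, so its count is no independent result. Besides Klf2 the largest were Gimap4, Ly6c1 and Itgb7 at 3.92, 3.86 and 2.92 (adjusted p between 0.001 and 0.0021, limma). Differences lay above 0 in 10 of the 17, against 7618 of all 17097 genes. Gimap5, Gimap6 and Cd5 were lower on the iCre arrays without overlap, at -0.56, -0.42 and -0.42, and were not called.

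Of 28 measured cell cycle genes, 0 were called (limma; 1 at an unadjusted p of 0.05), with a median of -0.10. Differences lay above 0 in only 3 of the 28, against 7618 of all 17097 genes. The largest differences were among those 3: 2.31 for Ccnd2 and 0.79 for Ccne1, both cyclin genes. Without iCre replicate 1, 3 of them were called, and without iCre replicate 2, 14.

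**Figure D4:**
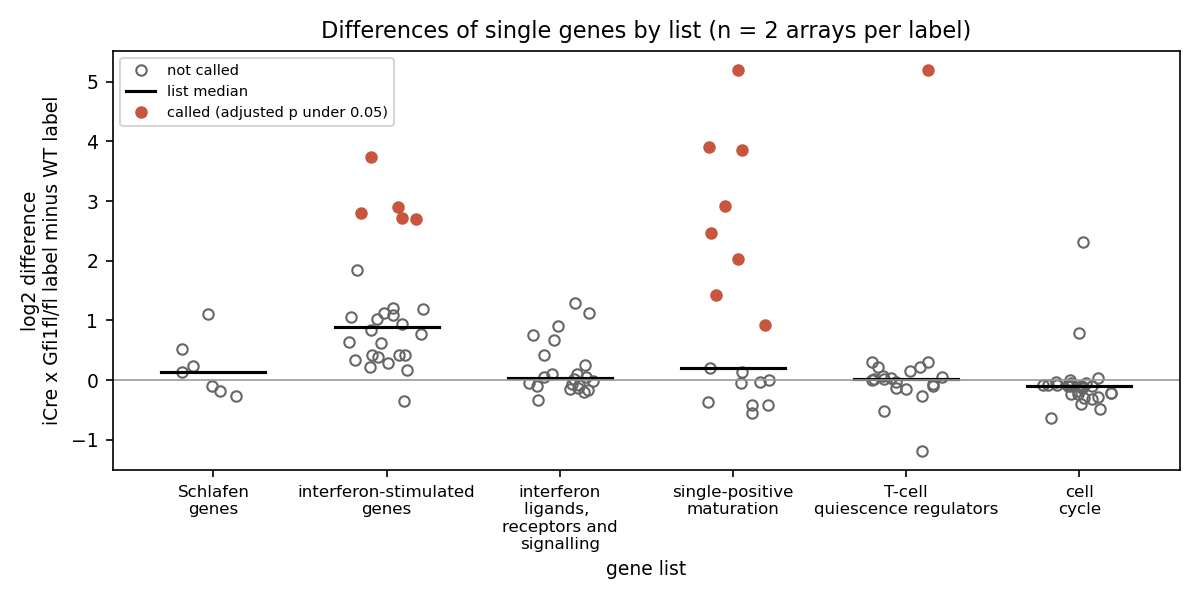
Log2 difference (y axis, iCre label minus WT label, n = 2 arrays per label) of each gene by list (x axis), with filled points for genes called at an adjusted p of 0.05 and bars at list medians. No Schlafen gene is filled, 5 interferon-stimulated genes are, and the medians of these lists are 0.13 and 0.89.

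The genes most like Slfn8 over the 4 arrays were sought among all other named genes, by the Euclidean distance between values centred on each gene's mean. The nearest 5 were Parp12, an ADP-ribosyltransferase gene (distance 0.0325 log2 units), Kcna2, a potassium channel gene (0.0724), Gbp2, a guanylate-binding GTPase gene (0.106), Xaf1, a gene of the interferon-stimulated list (0.133), and Snn (0.137). The label means of Parp12 were 5.74 on the WT arrays and 6.84 on the iCre arrays, and those of Gbp2 7.89 and 8.98. Their differences, 1.10 and 1.09, had to lie close to that of Slfn8 because of how these genes were chosen. None of the 5 was called (limma, adjusted p between 0.0574 and 0.155), and with 4 arrays many genes can have a like pattern.

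Other cells that a sort could hold were followed through their markers. Among 8 measured B cell markers, 13 of thymic epithelium and stroma and 8 of erythroid cells and platelets, 0 were called (limma). At an unadjusted p of 0.05 the counts were 1, 3 and 1, against 8.29% of all genes. Higher on the iCre arrays at that level were Epcam (1.68) and Cldn4 (1.26). Lower were Cd79b (-1.23), Krt8 (-0.30) and Car2 (-1.87). With an iCre array left out, calls appeared in these lists: 1 B cell marker and 1 erythroid or platelet marker without replicate 1, and 1 erythroid or platelet marker and 2 of epithelium and stroma without replicate 2. Of 12 markers of innate lymphoid, NK and gamma-delta T cells, only Cd163l1, a scavenger receptor gene, rose, by 7.45 on the log2 scale. The median difference was 0.12. These markers were chosen with earlier results of these data known. The mean of the 12 was 4.01 and 4.05 on the WT arrays and 4.89 and 4.84 on the iCre arrays, and 6 of them lay below the median of every array. Without iCre replicate 1 or 2, 2 of the 12 were called. Without Cd163l1 the mean of the other 11 was 4.09 and 4.06 on the WT arrays and 4.34 and 4.28 on the iCre arrays, so that the shift between labels was 0.23 in place of 0.84. At an unadjusted p of 0.05, 5 of the 12 differed, all higher on the iCre arrays (Cd163l1, Blk, Gata3, Il2rb and Klrd1, limma), against 8.29% of all genes. Differences lay above 0 in 9 of the 12, against 7618 of all 17097 genes, and the lowest was that of Il17re, at -0.28. Gata3 was bright under both labels, at 8.70 on the WT arrays and 9.26 on the iCre arrays. The 5 named markers moved in the same direction as Slfn8 and Slfn1. Their part in the differences of Slfn8 and Slfn1 was not tested. Of the 12 double-positive markers, 1 was called: Dntt, the terminal transferase gene, fell 1.61-fold (limma, adjusted p = 0.0413; 0.123 and 0.266 without WT replicates 1 and 2). In sorted populations, fewer expressing cells and less RNA per cell cannot be told apart.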

How the data were processed

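Affymetrix arrays were hybridised with biotin-labelled RNA from a 3' in vitro transcription kit, 1 array per sample, per the labels' protocols. The deposited log2 signals per probe set were used as given; per the submitters' processing notes, RMA and version 1.1 of Affymetrix Expression Console were used, and the nearly equal quartiles are those of quantile-normalized RMA output. No detection calls were used, so background could not be judged per probe set, and the number of arrays limits the precision.

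Probe sets were named from the platform's annotation. limma 3.58.1 in R 4.3.3 (lmFit, eBayes) compared the labels, with an intensity trend, no covariate and no filter on dim probe sets (2 residual and 5 prior degrees of freedom), adjusted by Benjamini-Hochberg over all 17097 genes. Further member probe sets came from a fit of all 28898 named probe sets. The fit was run on simulated data with independent errors and spreads drawn from its own prior. That checks the computation and not whether these arrays meet its assumptions. Folds are the log2 differences raised as powers of 2. Promoters were searched in Python 3.11.15 and aligned with Biopython 1.88; figures used matplotlib 3.10.9.

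The members and lists were chosen with earlier results of these data known. Counts of called genes in a list are therefore descriptions and no independent support. Named were all members, up to 4 called genes of a list with the largest change (up to 2 where none was called), all neighbours, Gfi1, and the 5 genes most like the member with the largest difference; other list genes were named after their values were seen. Lists were described by counts and medians only.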

Additional observations from a re-analysis of the deposited data

How the results depend on the processing

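Tried were 4 fits with 1 array left out, the replicate number as a block, arrays centred on their medians, quantile normalization repeated, leaving out the dimmest 30% or 50% of probe sets, a robust prior, no intensity trend, averaging a gene's probe sets, fitting all named probe sets, and an ordinary t statistic. The replicate number as a block left 183 genes called and 0 Schlafen genes, with an adjusted p of 0.0886 for Slfn8. The labels share only a number, and deviations of same-numbered arrays correlated at 0.301 across genes. The ordinary t statistic called 0 of all genes (1219 at an unadjusted p of 0.05) and 0 interferon-stimulated genes. The latter count was 8 without the dimmest 30% and 8 with the robust prior. Leaving out 1 array gave between 103 and 475 called genes (103 without WT replicate 2, 105 without WT replicate 1, 467 without iCre replicate 2, 475 without iCre replicate 1), between 0 and 1 Schlafen genes, and between 5 and 11 interferon-stimulated genes. Such a fit takes its spread from 1 label and assumes that the lone array varies like the others. Directions turned only without an array: Slfn3 lay between -0.77 and 0.24, Slfn5 between -0.14 and 0.40, and Slfn10-ps between -0.74 and 0.015. Slfn5 was negative without WT replicate 1 (-0.14) and without iCre replicate 1 (-0.12). Slfn8, Slfn1, Slfn2, Slfn4 and Slfn9 kept their direction in every setting that measured them. The filter on the dimmest 50% measured 3 of the 7 genes. Most members lay near the array medians, where a change may not be detectable.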
